A study of Mus musculus with 4 samples.

Results

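The transcription factors of the immediate early response were examined in the ureter of adult mice. The members are a list of gene names, chosen with earlier results of these data known: Fos, Fosb, Fosl2, Jun, Junb, Jund, Atf3, Egr1, Egr2 and Nr4a1. All 10 were measured, by 14 of 45037 non-control probe sets, each annotated to that symbol alone, among 18193 named genes in all. Where a gene had several probe sets, the brightest by mean gave its level. The 4 samples were ureters of adult male FVB/N mice at Theiler stage 28, each with 1 array and not pooled. All carried the SMGA/EGFP transgene, a green fluorescent reporter for the smooth muscle gamma actin gene Actg2, and the tissue between kidney and bladder was cut out by its fluorescence, rapidly frozen, and its RNA amplified in 2 rounds. The samples form 1 group with no treated, untreated or control arm, so the comparisons were of each gene with the arrays' background and of the samples with each other. They are called replicates 1 to 4, numbers without meaning as an order. The labels do not say that each sample came from a different animal, so p-values measure only the spread between these samples, which may be technical, and 4 arrays limit the precision of every value.

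Immediate early genes are transcribed within minutes of a stimulus from factors already present in the cell, and most of their mRNAs are short-lived. Proteins of the Fos family cannot pair with themselves and bind DNA with a Jun protein as the dimer AP-1. Jun proteins can also pair with each other. Atf3 is a stress-induced relative of the same leucine zipper class, Egr1 and Egr2 are zinc finger factors, and Nr4a1 is an orphan nuclear receptor. Serum response factor with its Elk partners, and CREB at the cyclic AMP response element (CRE), are the classical activators of these genes.

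Promoter sequences are shown for Fos, Atf3 and Nr4a1, above background with SDs of 0.75 or more over the samples, and for Jun and Junb, above background with SDs of 0.38 and 0.21. They are RefSeq windows of assembly GRCm38.p6, from 250 bases before to 50 bases after a transcription start, printed 5′ to 3′ on the gene's strand. Capitals mark the CRE core TGACG or its reverse complement CGTCA.
Fos, chr12:85473640-85473939, plus strand: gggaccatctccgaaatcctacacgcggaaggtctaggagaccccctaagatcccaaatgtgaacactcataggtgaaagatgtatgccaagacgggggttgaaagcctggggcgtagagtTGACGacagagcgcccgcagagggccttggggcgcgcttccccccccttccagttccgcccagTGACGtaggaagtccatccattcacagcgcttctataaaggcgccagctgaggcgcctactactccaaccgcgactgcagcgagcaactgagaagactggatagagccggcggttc
Atf3, chr1:191183284-191183583, minus strand: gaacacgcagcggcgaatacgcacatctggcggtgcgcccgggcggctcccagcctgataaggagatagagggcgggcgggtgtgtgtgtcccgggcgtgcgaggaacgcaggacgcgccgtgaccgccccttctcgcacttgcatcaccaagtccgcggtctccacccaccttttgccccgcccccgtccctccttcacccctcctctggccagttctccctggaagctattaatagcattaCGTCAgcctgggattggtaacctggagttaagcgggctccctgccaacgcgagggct
Nr4a1, chr15:101266596-101266895, plus strand: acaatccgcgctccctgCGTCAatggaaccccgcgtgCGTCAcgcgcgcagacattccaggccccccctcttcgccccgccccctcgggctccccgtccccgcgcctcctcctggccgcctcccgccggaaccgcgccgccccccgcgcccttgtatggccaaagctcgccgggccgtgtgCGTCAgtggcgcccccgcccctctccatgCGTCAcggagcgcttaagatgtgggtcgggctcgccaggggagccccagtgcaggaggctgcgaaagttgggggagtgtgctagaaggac
Jun, chr4:95052173-95052472, minus strand: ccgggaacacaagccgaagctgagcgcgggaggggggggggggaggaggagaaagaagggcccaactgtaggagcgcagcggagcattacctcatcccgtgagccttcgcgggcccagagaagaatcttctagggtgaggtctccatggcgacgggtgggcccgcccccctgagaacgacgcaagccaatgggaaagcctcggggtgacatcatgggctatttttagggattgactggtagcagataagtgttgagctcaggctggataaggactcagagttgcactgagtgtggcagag
Junb, chr8:84978699-84978998, minus strand: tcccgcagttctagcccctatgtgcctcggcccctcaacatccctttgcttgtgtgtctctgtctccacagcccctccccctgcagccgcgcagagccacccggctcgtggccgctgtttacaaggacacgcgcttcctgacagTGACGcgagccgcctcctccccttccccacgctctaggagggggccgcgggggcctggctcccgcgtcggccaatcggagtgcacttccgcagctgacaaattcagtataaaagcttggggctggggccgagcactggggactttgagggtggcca

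A RefSeq window was found for 9 of the 10 members, Egr1 being the one without, and Egr2 had several. The core TGACG, searched on both strands, was present in 8 of the members' 13 windows, namely those of Fos, Fosb, Atf3, Nr4a1 and Junb and 3 of the 5 of Egr2, and those 3 overlap. The windows of Jun, Jund and Fosl2 did not hold these letters. Of all 32851 RefSeq windows, 20.8% held it, and of the 21890 windows with a GC content inside the members' range of 46.7% to 72.3%, 24.6% did. The Fos window held it at 129 and 66 bases before the start, and the Nr4a1 window held it 4 times, at 233, 213, 69 and 40 bases before the start. The single copies in Junb, Fosb and Atf3 began 106, 60 and 7 bases before the start. The EGR site GCGNGGGCG, searched on both strands, was found in Fosb, Fosl2 and Nr4a1 and in 5.55% of all windows. The CArG box bound by serum response factor was found in Egr2 alone among the 9, in 4 of the members' 13 windows, and in 1.63% of all windows. The full CRE TGACGTCA, which contains the core, and the AP-1 site TGANTCA were found in none of the 9, against 1.79% and 7.81% of all windows. A match of letters is a description of the window and was not tested as a binding site. Sequence further than 250 bases before a start was not searched, and Egr1 had no window. An absent match therefore says nothing of sites elsewhere in a gene.

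Several facts of the arrays touch the values below. The 3′ to 5′ signal ratio of the Gapdh control lay between 31.62 and 36.94 in replicates 1 to 3 and was 18.77 in replicate 4. The 3′ to 5′ ratio of Actb was 19.8 in replicate 2 and between 4.426 and 8.231 in the others. Markers of neighbouring or other tissues lay over the background threshold in part of the samples. In replicate 3 this held for 12 of 12 skeletal muscle genes, against 1 to 3 in the others. For the 8 measured liver genes it held for 8 in replicates 1 and 3 and for 1 in replicates 2 and 4. Of 10 male accessory gland genes, 8 lay over it in replicate 1 and 9 in replicate 2, and 4 and 2 did in replicates 3 and 4. The log2 summed intensity of that list was nevertheless highest in replicate 3, with 12.92, 16.22, 17.24 and 9.78 in replicates 1 to 4. The fat cell list was also highest in replicate 3, with a log2 sum of 16.03 against 13.86 to 13.95. Of the markers of the labelled tissue, 10 of 10 smooth muscle and 10 of 12 urothelium genes were above background. The urothelium genes that were not, Upk3a and Krt20, named after their values were seen, lay over the threshold in replicate 3 alone (14.91 and 11.69). In such bulk samples, fewer cells of a type and less RNA per cell cannot be told apart. Replicate 4 had no such excess, with log2 summed intensities of 9.78 for the skeletal muscle list, 9.78 for the accessory gland list and 9.36 for the liver list, against highest sums of 18, 17.24 and 15.61 in the other samples.

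Of the 10 immediate early factors, 8 were above background, which was also true of 57.9% of all 18193 named genes. Above background means that the mean level over the 4 arrays exceeded the arrays' own thresholds. The call required a Benjamini-Hochberg adjusted p under 0.05 in limma's moderated test, one-sided. A gene was called if any of its probe sets passed, not only the one that gave its level. The threshold was the 95th percentile of the olfactory, vomeronasal and bitter taste receptor probe sets of each array. Levels are log2(intensity + 16), given with the SD over n = 4 arrays, and levels of different probe sets are not compared with each other. The members not above background were Fosb and Egr2. Without a test, the same number, 8 of 10, lay over the threshold on all 4 arrays, as did 58.4% of all named genes.

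**Figure D1:**
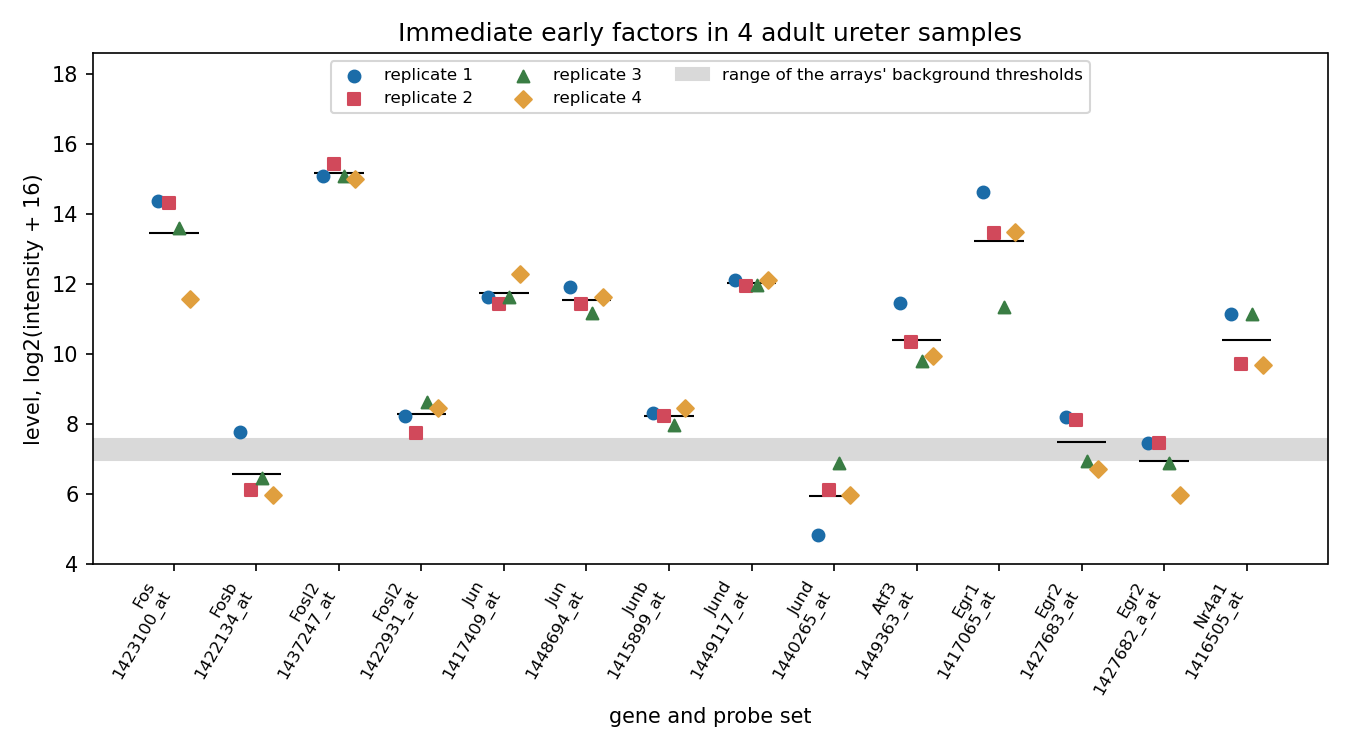
Level of every member probe set, as log2(intensity + 16), in the 4 ureter samples, with a bar at the mean and a grey band over the 4 arrays' background thresholds (6.98 to 7.569). Fos in replicate 4 (11.57) and Egr1 in replicate 3 (11.35) stand below the other 3 samples, while the Jund probe set 1449117_at spans 0.15 log2 units.

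Of the Fos family, Fos differed widely between samples, Fosl2 did so little, and Fosb was not above background. Fos, the prototype of the family, had intensities of 21136, 20451, 12362 and 3019 in replicates 1 to 4. Replicate 4 was the low sample, replicates 1 and 2 lay close together, and replicate 3 lay between. On the log2 scale the levels were 14.37, 14.32, 13.60 and 11.57, with a mean of 13.46 ± 1.31 (SD, n = 4) that lay 6.18 log2 units over the thresholds (adjusted p = 4.14e-06, limma). From the highest to the lowest array the intensity of Fos, with 16 added, differed 6.97-fold, and replicate 4 had a deviation of -2.53 log2 units from the mean of the other samples. The array of replicate 4 was also the one with the lowest 3′ to 5′ ratios, 18.77 for Gapdh and 4.426 for Actb, and their part in the low Fos value was not tested.

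Fosb, a close relative of Fos that also gives a truncated splice form, had intensities of 204.0, 53.43, 73.33 and 47.19 in replicates 1 to 4. Only the value of replicate 1, at 7.78 on the log2 scale, lay over its array's threshold of 7.231. The mean level of Fosb, 6.59 ± 0.82, was 0.69 log2 units under the thresholds (difference -0.69, adjusted p = 1, limma), so its differences between samples are those of a probe set at background. Fosl2, which encodes the Fos-related antigen Fra-2, had intensities of 35103, 44370, 34619 and 32991 by its brighter probe set 1437247_at. These values differed 1.34-fold at most and had a mean level of 15.16 ± 0.19 (adjusted p = 1.41e-08, limma). The other Fosl2 probe set, 1422931_at, had levels of 8.25, 7.76, 8.64 and 8.47 and was also above background (adjusted p = 0.00939, limma). The sample order of the Fosl2 probe sets differed, since replicate 2 was the highest array in 1437247_at and the lowest in 1422931_at.

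The Jun family showed small differences between the samples. Jun, the main partner of Fos in AP-1, had intensities of 3177, 2762, 3154 and 5017 by probe set 1417409_at, with replicate 4 highest. The mean level of Jun was 11.75 ± 0.38, 4.47 log2 units over the thresholds (adjusted p = 3.24e-07, limma). A second probe set of Jun, 1448694_at, read 3867, 2729, 2308 and 3176, with a mean of 11.54 ± 0.32 and replicate 1 highest. The probe sets of Jun therefore did not share their highest array. Jund, the member of the family with the steadiest expression in most cells, had intensities of 4395, 3966, 3982 and 4395 by 1449117_at, a 1.11-fold difference at most. Its level was 12.03 ± 0.08 (adjusted p = 1.5e-07, limma), the smallest SD among the 14 member probe sets. The second Jund probe set, 1440265_at, lay under the threshold on all 4 arrays (5.96 ± 0.84).

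Junb, an immediate early gene and in many settings an antagonist of Jun, was close to the background limit. Its intensities were 303.2, 287.2, 236.1 and 338.2, and the 4 values lay within 1.41-fold of each other. The mean level of Junb was 8.25 ± 0.21 (adjusted p = 0.0152, limma). Although each array lay over its own threshold, the call of Junb was lost when replicate 1, 2 or 4 was left out (adjusted p = 0.057, 0.0552 and 0.0562, limma) and with the 99th percentile as background (0.213). With the receptor probe sets' median plus 3 median absolute deviations as the limit, the Junb mean lay under the threshold, at -1.05 log2 units.

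Atf3 and Nr4a1 were above background on every array and differed about 3-fold between samples. Atf3, induced by many kinds of cell stress, had intensities of 2828, 1289, 885.8 and 969.6 and a mean level of 10.40 ± 0.75 (adjusted p = 4.73e-05, limma). Replicate 1 was the high sample, 1.44 log2 units over the mean of the others, and the highest and lowest arrays differed 3.15-fold. Nr4a1, also known as Nur77, had intensities of 2250, 822.3, 2243 and 811.4. Its samples fell into pairs, with replicates 1 and 3 at levels of 11.15 and 11.14 and replicates 2 and 4 at 9.71 and 9.69. The mean level of Nr4a1 was 10.42 ± 0.83 (adjusted p = 2.17e-05, limma), and the extremes differed 2.74-fold. Replicates 1 and 3 were also the samples in which all 8 measured liver genes lay over the threshold, with log2 summed intensities of 15.61 and 13.73, while replicates 2 and 4 had 8.99 and 9.36. Alb, which leads the liver list, had levels of 14.58, 6.91, 11.84 and 7.88 in replicates 1 to 4, and Apoa2 had 10.2, 7.9, 8.89 and 7.11. Alb in replicate 4 and Apoa2 in replicate 2 lay over the threshold. The dimmest liver marker in replicates 2 and 4, Fgb, named after its values were seen, had levels of 11.21, 4.26, 7.68 and 4.23. The part of liver RNA in the Nr4a1 values was not tested.

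Egr1 and Egr2 had their highest values in replicate 1 or in replicates 1 and 2. Egr1, a zinc finger factor induced by growth factors and by stretch, had intensities of 25317, 11154, 2600 and 11540. Replicate 3 stood low, replicate 1 high, and replicates 2 and 4 lay together. The levels were 14.63, 13.45, 11.35 and 13.50, with a mean of 13.23 ± 1.37 (adjusted p = 7.89e-06, limma), and the highest array exceeded the lowest 9.68-fold. Replicate 3 had a deviation of -2.50 log2 units from the mean of the other samples, and replicate 1 one of 1.86, which was 1.16 without replicate 3. Egr2, the relative of Egr1 known for its role in Schwann cells, had levels of 8.21, 8.12, 6.95 and 6.73 by probe set 1427683_at. Egr2 lay over the threshold in replicates 1 and 2 and under it in replicates 3 and 4, and its mean of 7.50 ± 0.77 did not pass the test (adjusted p = 0.64, limma). The second Egr2 probe set had the same pattern, over the threshold in replicates 1 and 2 (7.48 in each) and under it in replicates 3 and 4 (6.89 and 5.99).

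The low Egr1 value of replicate 3 went with low fibroblast and endothelial markers in that sample. All 10 fibroblast marker genes had their lowest array there, each by more than 1 log2 unit under the mean of the others, with a median deviation of -2.04. The log2 summed intensity of the fibroblast list was 14.61 in replicate 3 and 16.51 to 17.01 in the others. Col1a2, a chain of type I collagen, had levels of 13.94, 13.63, 11.43 and 13.15, and Col3a1, of type III collagen, had 16.07, 15.77, 13.41 and 15.37. Of the 9 endothelial genes above background, 8 were lowest in replicate 3, with a median deviation of -2.00 and a log2 sum of 12.80 against 14.51 to 15.48. In replicate 3, 10 of 10 fibroblast and 9 of 10 endothelial genes still lay over the threshold. Of the 8 macrophage genes above background, 5 were also lowest in replicate 3. The log2 sums of the urothelium, skeletal muscle, fat cell and accessory gland lists were highest there. In replicates 1 and 2 the fibroblast list had median deviations of 0.82 and 1.07, where Egr1 had deviations of 1.86 and 0.29. The part of any of these cell types in the Egr1 values was not tested. Of all 10535 genes above background, 9.63% were lower by more than 1 log2 unit in replicate 3.

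**Figure D2:**
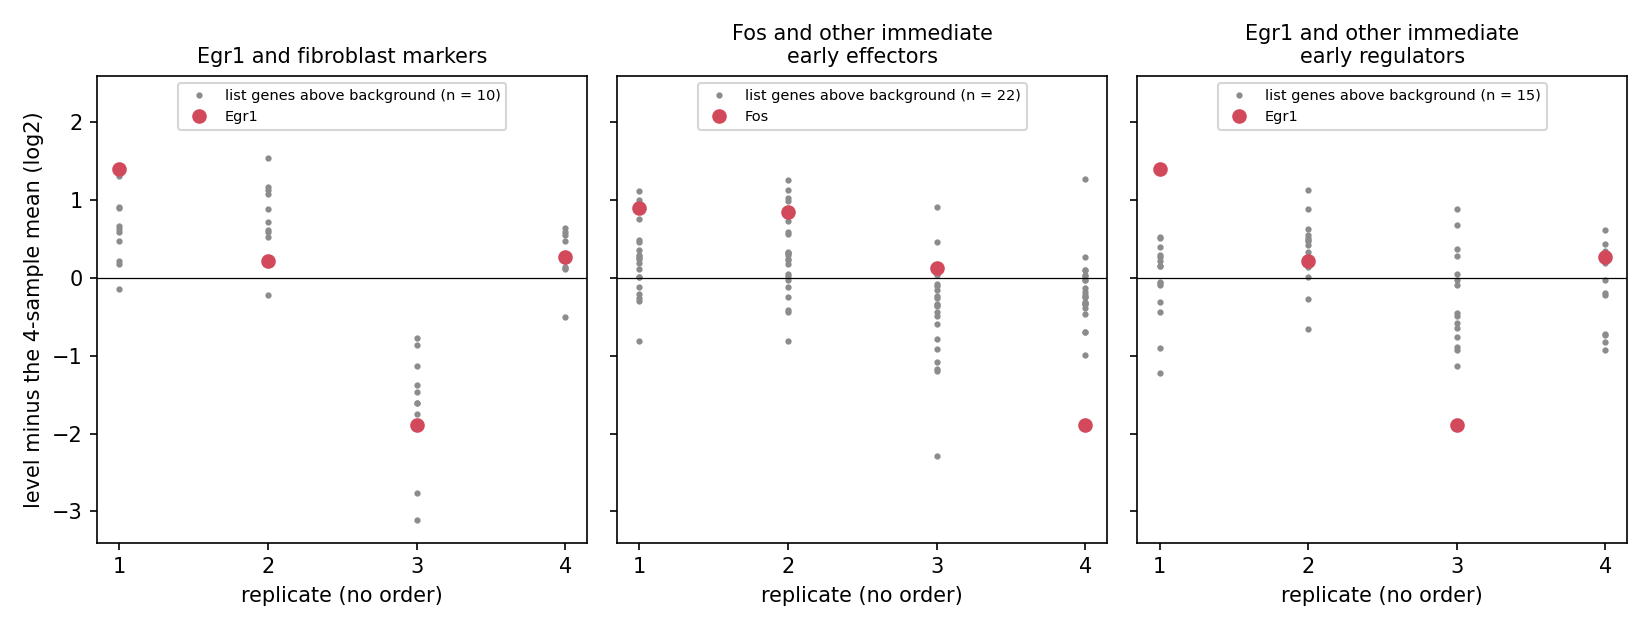
Level minus the 4-sample mean, in log2 units, of the named member (large points) and of the genes above background in 3 lists (small points), by replicate. Egr1 is low in replicate 3 together with the 10 fibroblast markers, and Fos in replicate 4 lies below all 22 other immediate early effectors.

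Among the 8 factors above background, 5 were highest in replicate 1, against 23% of all genes above background. Replicates 3 and 4 each held the lowest array of 3 of the 8, against 34.3% and 22.7% of all genes above background. The 5 genes highest in replicate 1 include near ties. Jund had levels in replicates 1 and 4 that were equal to 2 decimals (12.11). Nr4a1 had 11.15 and 11.14 in replicates 1 and 3, and Fos had 14.37 and 14.32 in replicates 1 and 2. Replicate 1 lay more than 1 log2 unit over the mean of the other samples for 3 of the 8, Fos, Atf3 and Egr1, a deviation seen in 3.19% of all genes above background. For Fos the deviations of replicates 1 and 2, 1.21 and 1.14, rested on replicate 4, without which they were 0.41 and 0.34. They were 1.79 for replicate 1 without replicate 2, and 1.74 for replicate 2 without replicate 1. Replicate 2 did so for Fos alone (5.72% of all genes), while replicate 3 was lower by that much for Egr1 alone and replicate 4 for Fos alone (3.66% of all genes). No factor above background lay that far the other way, which 4.45% and 5.26% of all genes did downward in replicates 1 and 2, and 7.55% and 4.37% upward in replicates 3 and 4. For replicates 1 to 4 the median deviation over the 8 factors was 0.53, -0.04, -0.13 and -0.05, beside 0.03, 0.03, -0.05 and 0.05 over all genes above background. The medians of replicates 2 and 4 had no settled sign, being 0.17 and 0.07 after quantile normalization, and that of replicate 4 was -0.40 without replicate 3. In replicate 1 the smooth muscle markers were low, with 10 of 10 genes lowest there and a log2 sum of 14.94 against 15.42 to 16.67, and the liver sum was at its highest. The part of either in the values of replicate 1 was not tested.

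**Figure D3:**
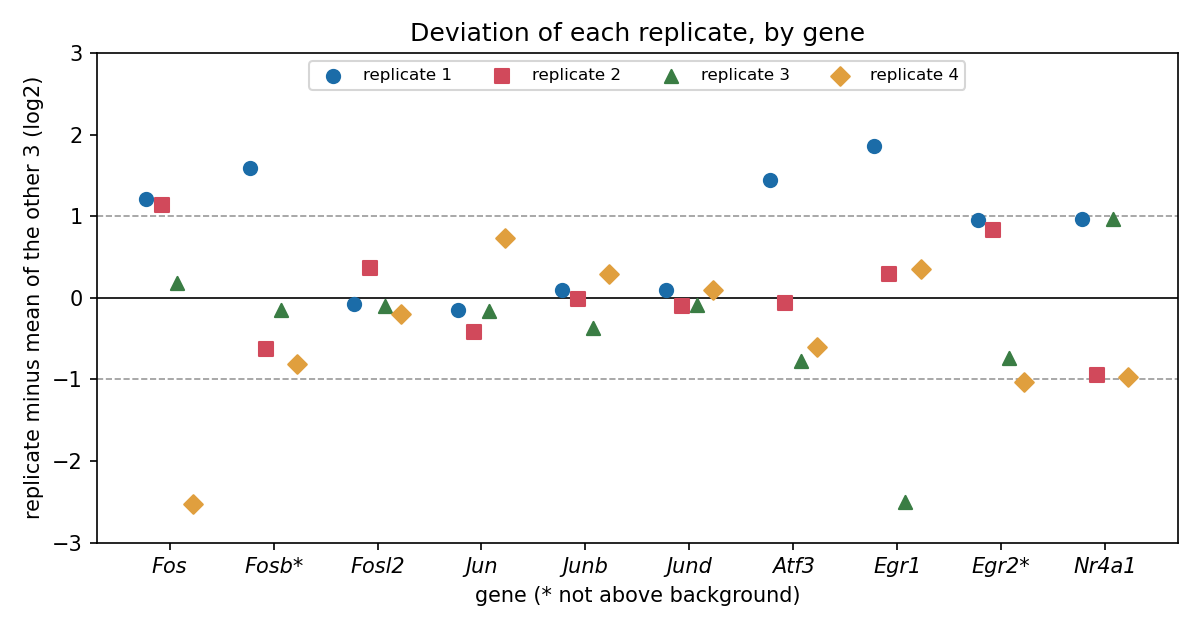
Each replicate's level minus the mean of the other 3, in log2 units, for the 10 genes, with dashed lines at 1 unit either way and an asterisk on genes not above background. Fos in replicate 4 (-2.53) and Egr1 in replicate 3 (-2.50) are the lowest points, and Fosl2, Jun, Junb, Jund and Nr4a1 stay between the dashed lines.

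The 8 factors above background covered a wide span of differences between samples. Egr1, Fos, Nr4a1 and Atf3 had SDs of 1.37, 1.31, 0.83 and 0.75, and Jun, Junb, Fosl2 and Jund had SDs of 0.38, 0.21, 0.19 and 0.08. Probe sets not above background also had SDs of this size, as with 0.82 for Fosb, 0.77 for Egr2 and 0.84 for the dim Jund probe set. The SD over all genes above background had a median of 0.41. For Egr1 the range from lowest to highest array was 3.28 log2 units, a range reached by 2.05% of the genes above background, and for Fos it was 2.80, reached by 3.62%. The ranges of Atf3 and Nr4a1, 1.66 and 1.45, were reached by 15.9% and 21.4%. At the other end, the range of Jund, 0.15, was reached by 99.3% and that of Fosl2, 0.43, by 89%.

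The differences between samples did not pass the test of spread for any factor. That test set a probe set's variance against the variance limma expects at its level (a trended, robust prior), with an F test adjusted over the 18451 probe sets above background, which were 41% of all. The adjusted p was 0.58 for Egr1 (F = 14.52, unadjusted p = 0.00576) and 0.58 for Fos (F = 14.33, unadjusted p = 0.00594), and at least 0.995 for the other factors. Among all these probe sets 0 passed (0%), and 1152 (6.24%) had an unadjusted p under 0.05, including those of Fos and Egr1. Since these arrays also supply the expected variance, spread shared by most probe sets escapes the test. With 4 arrays and adjustment over so many probe sets it could call little. Even the liver gene Alb, above background with an SD of 3.56, did not pass. A factor that did not pass is therefore not shown to be steady.

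**Figure D4:**
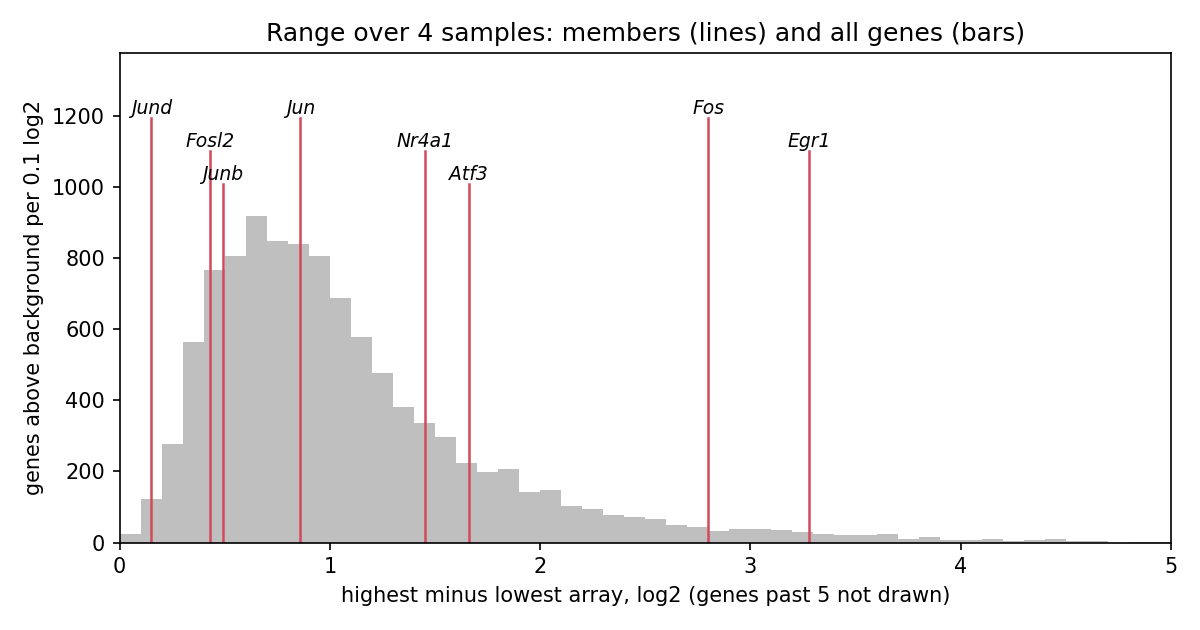
Range from lowest to highest array, in log2 units, of the 8 factors above background (lines), over a histogram of the 10535 genes above background (bars, per 0.1 log2 unit). Egr1 (3.28) and Fos (2.80) lie in the right tail, and Jund (0.15) lies at the left edge.

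The pairs of factors most alike in pattern were among Jun, Junb, Jund and Fosl2. Likeness was measured as the root mean square difference, over the 4 arrays, of levels centred on each gene's mean, where genes that hardly vary are alike by construction. It was 0.13 for Junb and Jund. Fosb and Atf3 differed by 0.33, both highest in replicate 1, and Atf3 and Egr2 by 0.41, where Fosb and Egr2 were not above background. Fos and Egr1, the members with the widest ranges, were the least alike of all pairs, at 1.53, and Egr1 and Nr4a1 came next at 1.5. The measure is not scaled by a gene's spread, so genes with wide ranges can reach the largest differences. The Fos pattern was nearest to Egr2 among the members (0.68), and that of Egr1 to Atf3 (0.77). Outside the members, the genes above background closest to Fos were Tenm3 (0.242), Gins1 (0.254) and Cdyl2 (0.278). Tenm3, a teneurin of cell adhesion, had levels of 10.04, 10.15, 9.28 and 7.83 in replicates 1 to 4. Closest to Egr1 were Pcolce (0.114), S100a3 (0.137) and Lrrn4cl (0.23). Pcolce, an enhancer of procollagen processing, had levels of 15.14, 14.08, 11.79 and 14.24. These genes were picked for likeness over the same 4 arrays, so sharing a member's lowest array follows from the choice.

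Other transcription regulators of the immediate early response were above background in 15 of 17 cases, beside 57.9% of all named genes. Ier2 had a level of 13.59 ± 0.43, Klf4 of 14.18 ± 0.55 and Klf6 of 14.46 ± 0.60, the last 2 being Krüppel-like zinc finger factors. In each of these 3 genes replicate 3 was the lowest array, at 12.95 for Ier2, 13.42 for Klf4 and 13.58 for Klf6. Egr3, a relative of Egr1 and Egr2, passed narrowly at 8.31 ± 0.73 (adjusted p = 0.0341, limma). The genes of this list not above background, named after their values were seen, were Fosl1, which encodes Fra-1, at 6.92 ± 0.67 and Egr4 at 5.93 ± 1.03. With the limit at 3 median absolute deviations over the receptor median, 8 of the 17 passed, beside 40.1% of all named genes. Replicate 3 held the lowest array for 8 of the 15 genes, against 34.3% of all genes above background. The relatives of Nr4a1, also named after their values were seen, had other sample orders, with Nr4a2 highest in replicate 2 (10.36) and Nr4a3 in replicate 3 (10.41).

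Effector genes of the immediate early response were above background in 22 of 27 cases, beside 57.9% of all named genes. Dusp1, a phosphatase that switches off MAP kinases, had levels of 12.91, 13.65, 12.41 and 11.67, lowest in replicate 4 as Fos was. Zfp36, which speeds the decay of AU-rich mRNAs, had 12.09 ± 0.63 and was lowest in replicate 3 (11.18). Ier3 and Btg2, the latter an antiproliferative gene, had 11.52 ± 0.20 and 12.55 ± 0.43. Of the 22 genes, 11 were highest in replicate 1 and none was lowest there, against 23% and 19.4% of all genes above background. The lowest array was replicate 3 for 11 and replicate 4 for 10 of the 22, against 34.3% and 22.7% of all genes above background. The list's median deviation was 0.36, 0.36, -0.45 and -0.30 in replicates 1 to 4. Replicate 3 lay more than 1 log2 unit low for 6 of the 22 and replicate 4 for 1, against 9.63% and 3.66% of all genes above background.

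Regulators upstream of these genes were above background in 17 of 18 cases, beside 57.9% of all named genes. Srf, the serum response factor, had 12.01 ± 0.22, Elk4, one of its ternary complex partners, 14.50 ± 0.34, and Creb1, which encodes CREB, 12.39 ± 0.38. Elk1, another such partner and the gene of this list that did not pass, had 7.94 ± 0.67 (adjusted p = 0.13, limma). The median SD of the 17 genes was 0.35, against 0.60 for the other immediate early regulators, 0.66 for the effectors and 0.41 for all genes above background, and the difference between lists was not tested. Elk3 and Rps6ka5, named after their values were seen, varied more, with SDs of 1.23 and 0.76 and their lowest arrays in replicate 3 (11.19 and 9.99). None of the 17 was highest in replicate 3, against 27.6% of all genes above background. Without replicate 3, 18 of 18 passed, beside 58% of all named genes.

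Partners and relatives of AP-1 were above background in 10 of 14 cases, beside 57.9% of all named genes. Atf2, which pairs with Jun at CRE-like sites, had 13.41 ± 0.26, Atf7 had 8.47 ± 0.53, Jdp2, a repressor that pairs with Jun, had 9.78 ± 0.83, and Mafg, a small Maf protein, had 8.81 ± 0.49. With the limit at 3 median absolute deviations, 5 of the 14 passed, beside 40.1% of all named genes. Jdp2 was highest in replicate 1 (10.81), as Atf3 was, and lowest in replicate 3 (8.87). Of the 10 genes above background, 4 were highest in replicate 1, against 23% of all genes above background. The lowest array was replicate 2 for 5 of the 10 and replicate 3 for 1, against 23.6% and 34.3% of all genes above background. Those not above background, named after their values were seen, were Fosl1 and the 3 Batf genes, at 4.87 ± 0.46 for Batf, 7.51 ± 0.38 for Batf2 and 7.04 ± 0.73 for Batf3. Some genes for feedback and mRNA decay also stand in the effector list. Of the 22 measured, 19 were above background, beside 57.9% of all named genes. They included Dusp6, a phosphatase of ERK, at 13.47 ± 0.49, and Nab2, a corepressor of the Egr factors, at 8.38 ± 0.26. Of these 19 genes 8 were lowest in replicate 4, against 22.7% of all genes above background.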

How the data were processed

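For 4 Affymetrix MOE430 arrays the authors deposited linear intensities, 1 for each probe set. The submitters' processing notes name GCOS, Affymetrix's operating software, with no version. The algorithm and genome build are not stated in the labels. The trimmed mean intensity, without the highest and lowest 2%, was 1500 on each array, so the arrays had already been scaled, and no further scaling was applied. Of 45101 probe sets, 64 controls were left out. Of the rest 34945 had 1 symbol in the platform's annotation, 932 several and 9160 none. The gene identifiers of all 14 member probe sets were found in the RefSeq table of GRCm38.p6, with 0 symbols changed. Levels were log2(intensity + 16), which compresses differences among dim probe sets. The background came from 83 chemosensory receptor probe sets. Tests used limma 3.58.1 in R 4.3.3, with a trended robust prior. They were also run on simulated arrays with independent normal values, a check of the code and not of their power on these samples. The spread test had 3 and 5.24 degrees of freedom. No 2 arrays shared more than 9 identical values.

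The members and gene lists were chosen with earlier results of these data known. Named genes were the members, the leading 4 measured genes of each related list, the leading 2 of marker lists, and the 3 genes nearest to Fos and to Egr1. Genes outside this rule are said in the text to have been named after their values were seen. Marker lists covered smooth muscle, urothelium, fibroblast, endothelium, macrophage, lymphocyte, skeletal muscle, liver, male accessory gland, kidney and fat. Of these, 8 of 10 macrophage, 0 of 9 lymphocyte, 1 of 9 kidney and 3 of 8 fat cell genes were above background, as were 1 of 12 skeletal muscle, 2 of 8 liver and 1 of 10 accessory gland genes. Alternatives were pseudocounts of 1 and 64, quantile normalization, a 99th percentile background, another at 3 median absolute deviations over the median, other handling of probe sets, leaving out each replicate, a call made without a test, other spread priors and, added after the data were seen, a moderated test with no trend or robust prior.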

Additional observations from a re-analysis of the deposited data

How the results depend on the processing

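Over 15 alternatives 295 of 312 recomputed values were counted as unchanged. For a distance this meant the same sign and call, and for a deviation a move under the factors' median SD of 0.56. Counts had a wider margin, so that some sizeable falls are among the 295. With the mean over a gene's probe sets, the other immediate early regulators fell from 15 to 10 and the AP-1 partners from 10 to 7. Of all named genes 51.4% then passed, in place of 57.9%. The number of factors above background was 8 under most settings and 7 with the 99th percentile, with a limit 3 median absolute deviations over the median, and without replicate 1, 2 or 4. With replicates left out in turn it ranged from 7 to 8. The factor lost was Junb each time, with its distance from the threshold at 0.48 for the 99th percentile, -1.05 for the median absolute deviations, and 0.87 to 0.93 without a replicate. The distance of Egr2, 0.22 as reported and not called, was -0.27 at the 99th percentile, -1.79 at the median absolute deviations, -0.05 as the mean of its probe sets, and -0.09 to 0.50 with a replicate left out (-0.04 without replicate 1 and -0.09 without replicate 2). At the median absolute deviations the other immediate early regulators above background fell to 8 and the AP-1 partners to 5, where 40.1% of all named genes passed in place of 57.9%. No factor passed the spread test under any alternative, but that test called few or no probe sets in each of them. Of all probe sets 7 passed without replicate 2 and 4 without replicate 3. The deviation of Fos in replicate 4 ranged from -2.78 to -2.39 and that of Egr1 in replicate 3 from -2.71 to -2.12. The median deviation over the factors in replicate 1 ranged from 0.41 to 0.73. No paired analysis was possible because the samples form 1 group. Signal over background limits what can be said of Fosb, Egr2 and Junb.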
